A study of Mus musculus with 6 samples.

Results

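The genes that encode the proteins of the cytosolic ribosome were examined in mRNA-seq libraries of day 4 (D4) embryoid bodies (EBs) from 2 edited mouse embryonic stem cell lines. Members were the listed genes whose symbol begins with Rpl or Rps and a number, together with *Rplp0*, *Rplp1*, *Rplp2* and *Rpsa*. S6 kinase genes and rows marked as pseudogenes (-ps) were left out. The rule found 85 of 15266 listed genes, of which 45 encode proteins of the large subunit, 31 proteins of the small subunit and 9 are relatives of these genes. The relatives are 8 paralogs (*Rpl3l*, *Rpl7l1*, *Rpl10l*, *Rpl22l1*, *Rpl36al*, *Rpl39l*, *Rps4y2* and *Rps27l*) and *Rps19bp1*, which encodes a protein that binds RPS19 and is not itself a ribosomal protein. Both lines derive from W9.5 mESCs. The EVX1-Δfs line (clone 14) carries a frameshift in the *Evx1* homeodomain on both alleles and leaves the antisense transcript *Evx1as* in place. The Del#3 line carries the Evx1/Evx1asΔ2.6kb deletion, which takes out the promoters of *Evx1* and *Evx1as*. Functional EVX1 is thus missing from both lines, and the comparison asks what the added loss of *Evx1as* does. EVX1-Δfs is a single clone, Del#3 is likewise 1 edited line, and wild type EBs were not analysed here. Each line was differentiated without LIF in serum medium for 4 days in 3 replicates, and the lines were set up side by side, with a day of its own for every replicate; neither the labels nor the methods tie a replicate number to a day.

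A eukaryotic ribosome joins a small subunit, which reads the mRNA, to a large subunit, which forms the peptide bond, and each subunit holds many proteins in single copies around ribosomal RNA. The mRNAs of these proteins are short and very abundant in growing cells such as mESCs and early EBs. Many of them start with a run of pyrimidines, the 5′ terminal oligopyrimidine (TOP) tract, through which LARP1 and mTOR signalling control their translation as a group. Mammalian genomes hold many processed pseudogenes of ribosomal protein genes, so that a short read from one of them can match several places.

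The deposited values are normalized counts, which are the reads on a gene divided by a size factor for the library. Recovered reads summed to between 9024579 and 15699124 per library over the listed genes, and in both lines replicate 1 was the deepest. *Evx1* had 2582 to 4023 reads in the EVX1-Δfs libraries and 28 to 48 in the Del#3 libraries, and *Evx1as* (listed as 5730457N03Rik) had 571 to 879 and 21 to 30. Markers of streak and nascent mesoderm summed to 762 to 1012 RPM per library (reads scaled to a common library total), pluripotency markers to 585 to 925, endoderm markers to 296 to 409 and neurectoderm markers to 1.34 to 2.14. In these bulk samples, fewer cells of a type and less RNA per cell cannot be told apart.

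The sequences around annotated starts were read for the 64 of 85 members with an entry in the RefSeq table of promoters (GRCm38.p6). Each stretch runs 5′ to 3′ on the gene's strand from 25 bases before to 15 bases after the start. Capitals mark a run of at least 8 pyrimidines (C or T only) inside the printed stretch that touches the 15 bases on either side of the start, and a run that goes on past the last base is cut there. The first lines are those of the members called between replicates below for which the table has a start, and the last lines are those of the genes with the longest runs.
Rps26, chr10:128626492-128626531, minus strand: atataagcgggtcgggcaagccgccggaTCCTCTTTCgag
Rps24, chr14:24490653-24490692, plus strand: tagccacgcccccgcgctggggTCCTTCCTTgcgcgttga
Rpl34, chr3:130730323-130730362, minus strand: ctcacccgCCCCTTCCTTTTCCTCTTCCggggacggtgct
Rpl37, chr15:5116588-5116627, plus strand: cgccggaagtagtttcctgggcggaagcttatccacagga
Rps12, chr10:23787195-23787234, minus strand: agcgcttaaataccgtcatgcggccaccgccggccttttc
Rps28, chr17:33824548-33824587, minus strand: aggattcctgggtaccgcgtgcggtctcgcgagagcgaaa
Rpl27a, chr7:109519170-109519209, plus strand: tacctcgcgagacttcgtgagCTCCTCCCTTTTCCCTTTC
Rpl7a, chr2:26910782-26910821, plus strand: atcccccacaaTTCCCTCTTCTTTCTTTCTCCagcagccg
*Rpl34* and *Rps24* have a further annotated start each, which is not shown. Of the 64 members, 27 (42.2%) had at least 8 pyrimidines in a row inside those 15 bases on either side, against 13.9% of all 27025 genes in the table. A run of 8 purines (A or G only) in the same place was found in 3 members (4.69%) and in 15.3% of all genes. The run was 20 bases long in *Rpl34*, 9 in *Rps26* and *Rps24* and 21 in *Rpl7a*. No run of 8 was found inside the stretches of *Rpl37*, *Rps12* and *Rps28*, and that of *Rps12* ends in pyrimidines at the cut.

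Other motifs were searched on both strands in the 300 bases from 250 before to 50 after the start. The ETS-type motif CCGGAAG was present in 25 of 64 members (39.1%) and in 9.93% of all genes. It stood in the windows of *Rps26*, *Rpl34* and *Rpl37* and was not found as these letters in those of *Rps24*, *Rps12* and *Rps28*. On the opposite strand its last letters are pyrimidines, so it can overlap a pyrimidine run. GGGCGG, the core of Sp1 sites, was present in 41 members (64.1%) and in 38.2% of all genes, AAGATGG (YY1 type) in 10 (15.6%) and in 7.28%, and TATAAA in 7 (10.9%) and in 15.7%. A match describes the letters of the window only.

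The first comparison asked whether the loss of *Evx1as* together with *Evx1* changed the amount of ribosomal protein mRNA. Reads on the 85 members made up 11.9%, 11.9% and 15.1% of the reads on listed genes in replicates 1 to 3 of EVX1-Δfs. Their part was 9.57%, 13.5% and 11.1% in replicates 1 to 3 of Del#3. The lowest value was a Del#3 library and the highest an EVX1-Δfs library, and the lines overlapped. The mean of EVX1-Δfs was 13.0% ± 1.83 (SD, n = 3) and that of Del#3 11.4% ± 1.96 (SD, n = 3), a difference of -1.58 percentage points (two-sided exact permutation test, p = 0.4, smallest possible p = 0.1). The difference was -0.53 points without EVX1-Δfs replicate 3, -0.67 without Del#3 replicate 1 and -2.62 without Del#3 replicate 2. Within same-numbered pairs the difference was -2.35, 1.55 and -3.94 points, so the direction changed in replicate 2. Reads listed under *Rn45s*, the 45S precursor of most ribosomal RNAs, made up 3.20% to 4.86% of the reads per library. Their mean share was 4.11% in EVX1-Δfs and 3.94% in Del#3 (two-sided exact permutation test, n = 3 per line, p = 0.8). Reads from the precursor and from mature ribosomal RNA were not told apart. In all, 6 shares and ratios were compared in this way (exact permutation tests), and Benjamini-Hochberg adjustment over these 6 gave 0.6 for the members' share.

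**Figure D1:**
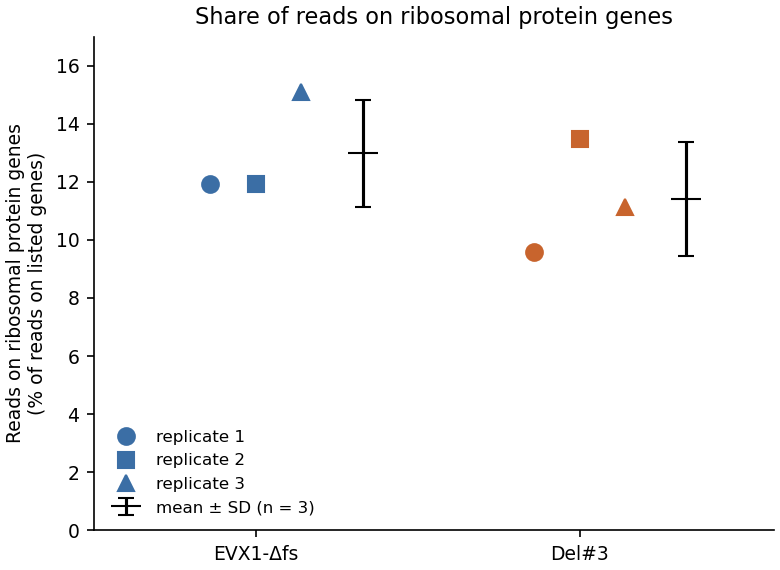
Percentage of the reads on listed genes (vertical axis, starting at 0) that fell on ribosomal protein genes, with 1 point per library and the mean ± SD of the 3 replicates of each line beside them. The EVX1-Δfs libraries lie between 11.9% and 15.1% and the Del#3 libraries between 9.57% and 13.5%.

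The balance between subunits was compared as reads on small subunit genes per read on large subunit genes. For replicates 1 to 3, this ratio was 0.707, 0.730 and 0.744 in EVX1-Δfs, compared with 0.780, 0.755 and 0.747 in Del#3. Each Del#3 value was above each EVX1-Δfs value (p = 0.1 by the two-sided exact permutation test, which can go no lower here, and 0.6 after adjustment over the 6 comparisons). The separation was narrow, and leaving out single genes, such as *Rps2* or *Rps9*, ended it. *Rps2*, a protein near the mRNA entry of the small subunit, had 44735, 41610 and 52427 normalized counts in the EVX1-Δfs replicates, in order, and 61011, 58478 and 41616 in Del#3. Without *Rps2*, the ratio was 0.645, 0.673 and 0.690 in EVX1-Δfs and 0.663, 0.687 and 0.684 in Del#3, and the lines overlapped (two-sided exact permutation test, n = 3 per line, p = 0.7).

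Gene by gene, 84 members passed the filter on low counts and were tested with the other genes, 12891 in all. Between Del#3 and EVX1-Δfs, limma called no member at the threshold of 0.05 after Benjamini-Hochberg adjustment (0 of 84; 0.0155% of all genes tested passed), and none had an unadjusted p-value under 0.05 (1.03% of all genes). Once same-numbered libraries were paired by a block, limma again called 0 members (0.0233% of all genes), while 4 had an unadjusted p-value under 0.05 (4.76%, against 4.62% of all genes). On the recovered reads, edgeR (0.0155% of all genes called) and DESeq2 (0.0233%) called 0 members each, with 1 member each under an unadjusted 0.05 (1.12% and 1.33% of all genes). With the block they called 0 as well, against 0.0233% and 0.14% of all genes, with 3 and 8 members under an unadjusted 0.05 (4.5% and 3.21% of all genes). The 95% interval of the log2 fold change lay within a 2-fold change either way for 49 of the 84 members (58.3%, against 61.1% of all genes tested). For the others the interval reached beyond a 2-fold change.

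Most members nevertheless had a fold change of the same sign. The log2 fold change, given here as Del#3 against EVX1-Δfs on the log2(normalized count + 1) scale, was below 0 for 79 of 84 members (94.0%), against 49.6% of all genes tested. The median was -0.27 (quartiles -0.33 and -0.20) over the members and 0.0022 over all genes. It was -0.27 for the 45 large subunit genes, -0.25 for the 31 small subunit genes and -0.38 for the 8 relatives tested. Ribosomal protein genes vary together within a library, so these genes are not independent. Within same-numbered pairs the members' median was -0.48, 0.22 and -0.54, and that of all genes -0.018, 0.024 and 0.00090. The sign within replicate 2 rests on matching the lines by replicate number, and in counts over all genes EVX1-Δfs replicate 3 was nearer to Del#3 replicate 2 than to Del#3 replicate 3 (chi-square per degree of freedom 18.1 and 30.3). Without Del#3 replicate 1, the library with the lowest share, the median was -0.042 and 50 of 84 members lay below 0. Without EVX1-Δfs replicate 3, the library with the highest share, it was -0.10, and without Del#3 replicate 2 it was -0.46. After correction of each library for transcript length and GC content, it was -0.11, with 67 of 83 members below 0. Other values also differed between the lines. Summed neurectoderm markers were 1.34 to 1.44 RPM in EVX1-Δfs and 1.64 to 2.14 in Del#3, which rests on few reads over 3 genes. Within all 3 same-numbered pairs Del#3 was higher in summed markers of primitive blood and in the nuclear RNA *Malat1* (log2 differences 0.93, 0.78 and 0.77). Summed endoderm markers were lower in Del#3 within all 3 pairs (351, 409 and 394 RPM against 296, 360 and 357). Of all genes tested, 12.1% were higher and 11% lower within all 3 pairs. Summed streak and pluripotency markers changed direction between pairs. Their part in the members' shift was not tested.

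**Figure D2:**
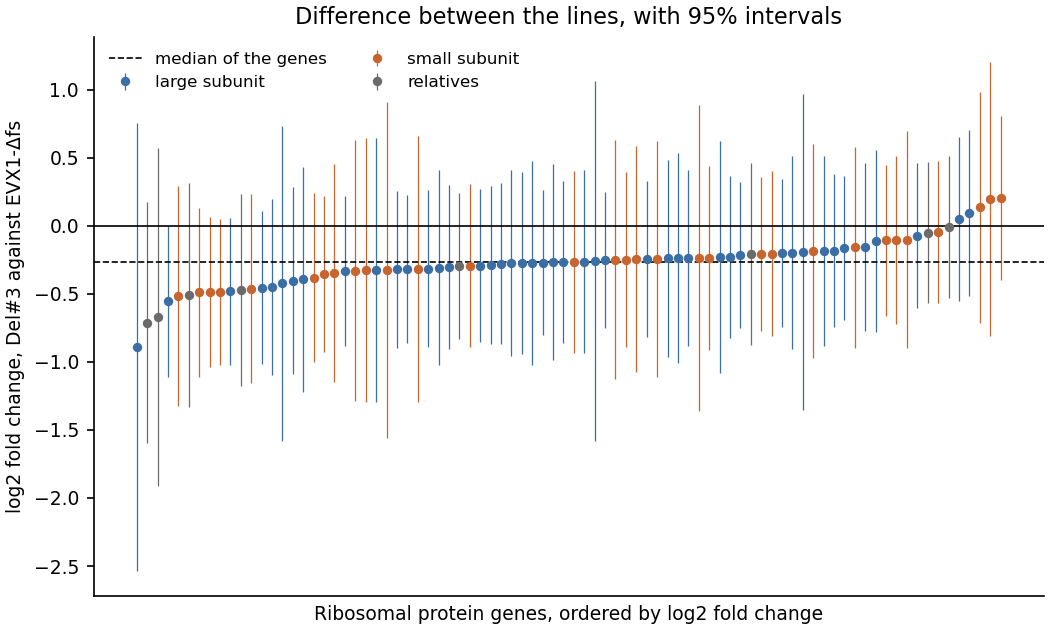
Log2 fold change of Del#3 against EVX1-Δfs (vertical axis) for the 84 members tested, ordered from lowest to highest, with 95% intervals from limma; colours mark large subunit, small subunit and relatives, and the dashed line is the median of the genes. Of the 84 points 79 lie below 0, the median is -0.27, and all intervals cross 0.

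The lines did not overlap, with Del#3 lower, for 6 members, *Rpl4*, *Rpl9*, *Rpl10l*, *Rpl12*, *Rpl36a* and *Rps3a1* (7.14%, against 1.8% of all genes), and with Del#3 higher for 0 (1.71% of all genes). Del#3 was lower within all 3 same-numbered pairs for 13 members (15.5%, against 11%) and higher within all 3 for 0 (12.1%). *Rpl36a*, a large subunit gene on chromosome X (X:131120193-131122601, NCBIM37, the assembly known as mm9), had 4758, 3182 and 4463 normalized counts in replicates 1 to 3 of EVX1-Δfs. In Del#3 it had 2450, 3180 and 3179. The highest Del#3 library lay directly under the lowest EVX1-Δfs library, and the log2 fold change was -0.48 (SE 0.24, 95% interval -1.02 to 0.056). *Rpl39*, which encodes a very small protein at the exit tunnel of the large subunit (X:34622515-34625397), had 5849, 3692 and 4863 normalized counts in EVX1-Δfs and 2750, 3864 and 3114 in Del#3. Its lines overlapped in replicate 2, and the log2 fold change was -0.56 (SE 0.25, 95% interval -1.11 to 0.00068). *Rps4x*, a small subunit gene on chromosome X, had 13695, 10638 and 14238 in EVX1-Δfs and 7848, 8891 and 10813 in Del#3, where the highest Del#3 library passed the lowest EVX1-Δfs library. *Rps3a1*, of the small subunit, had 21584, 18228 and 24976 in EVX1-Δfs and 12801, 15886 and 17572 in Del#3. These 4 were the members under an unadjusted 0.05 with the replicate block by limma (unadjusted p = 0.0489, 0.0412, 0.0386 and 0.0498), and the adjusted p of each was 0.992.

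The lowest fold changes included 3 genes with few reads, *Rpl30*, *Rpl10l* and *Rpl39l*. *Rpl30*, a core protein of the large subunit, had log2 fold change -0.89 with an interval from -2.54 to 0.75, and *Rpl39l* -0.67 with an interval from -1.91 to 0.57. *Rpl10l* had 34.3, 28.1 and 41.4 normalized counts in EVX1-Δfs and 27.1, 17.4 and 18.2 in Del#3, which did not overlap (log2 fold change -0.71, SE 0.40). *Rps20*, at the head of the small subunit, had 12319, 16698 and 20318 in EVX1-Δfs and 6286, 16454 and 13825 in Del#3. It was lower in Del#3 in each pair, but its lines overlapped (log2 fold change -0.52, SE 0.36, and -0.79 to -0.095 with single libraries left out). At the other end stood *Rpl28* (0.052), *Rplp2* (0.093), *Rps13* (0.13), *Rps27* (0.19) and *Rps2* (0.20, SE 0.27, 95% interval -0.40 to 0.80). With single libraries left out, the lowest values were -0.15 for *Rpl28*, -0.065 for *Rplp2*, -0.35 for *Rps13*, -0.20 for *Rps27* and 0.10 for *Rps2*, so the sign held for *Rps2* alone. The smallest adjusted p of any member between the lines in any fit run was 0.813 (*Rps3a1*, DESeq2 with the block), so that neither end of the order passed the test.

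The P stalk, which recruits elongation factors to the large subunit, is built from the products of *Rplp0*, *Rplp1* and *Rplp2*. *Rplp0* had 46023, 49748 and 63093 normalized counts in EVX1-Δfs and 35278, 59982 and 41564 in Del#3. *Rplp1* had 16040, 18470 and 24975 against 8241, 23962 and 16480, and *Rplp2* had 8876, 12841 and 10390 against 8089, 14054 and 12649. The lines overlapped for each of the 3, with log2 fold changes of -0.24 (SE 0.29), -0.40 (SE 0.37) and 0.093 (SE 0.28).

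A list of 10 members was followed whose proteins or whose loss are tied to p53 or to Diamond-Blackfan anaemia. They were *Rpl5*, *Rpl11*, *Rpl23*, *Rpl35a*, *Rps7*, *Rps10*, *Rps19*, *Rps24*, *Rps26* and *Rps27a*. None of the 10 passed the test between the lines, all 10 had a log2 fold change below 0, and their median was -0.31, against -0.27 over all members. *Rpl5* and *Rpl11*, whose proteins bind MDM2 together with 5S RNA, did not move alike between libraries. *Rpl5* had 13503, 6879 and 9920 normalized counts in EVX1-Δfs and 9510, 5333 and 7860 in Del#3, highest in replicate 1 and lowest in replicate 2 in both lines. *Rpl11* had 17106, 15736 and 22382 in EVX1-Δfs and 12649, 18080 and 14332 in Del#3. Their log2 fold changes between the lines were -0.40 (SE 0.31) and -0.29 (SE 0.25). *Rps19*, the first gene found mutated in that anaemia, had 16572, 19954 and 24096 against 13854, 22991 and 16348 (log2 fold change -0.20, SE 0.27).

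A second list held 6 members that mouse mutants or studies of specialised ribosomes tie to embryonic patterning or selective translation, *Rpl10*, *Rpl10a*, *Rpl24*, *Rpl38*, *Rps20* and *Rps25*. None passed the test between the lines, all 6 lay below 0, and their median was -0.31. *Rpl38*, whose mutation gives the Tail-short mouse and lowers translation of Hox mRNAs, had 7998, 6758 and 9614 normalized counts in EVX1-Δfs and 5235, 7767 and 6395 in Del#3 (log2 fold change -0.33, SE 0.25, 95% interval -0.88 to 0.21, and -0.12 after correction for length and GC content). *Rpl24*, mutated in the Belly spot and tail mouse, had 6780, 6622 and 9215 against 5553, 7439 and 5706 (log2 fold change -0.27, SE 0.24). In both genes the lines overlapped. The intervals leave out a 2-fold change in either direction.

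The second comparison was between replicate numbers. Of the sum of squares of the members' log2 values, 61.3% lay between the 3 replicate numbers, 14.1% between the 2 lines and 24.6% in neither. The replicate number takes 2 degrees of freedom and the line 1. The same shares over all genes tested were 60.5%, 13.7% and 25.8%, a similar split. An F-test of the replicate number in limma, with the line as a covariate, called 7 of 84 members at an adjusted p of 0.05 (8.33%, against 4.24% of all genes tested). *Rpl34*, *Rpl37*, *Rps12*, *Rps26*, *Rps28* and *Rps29* were lower in replicate 1 than in the other replicates (6 of 84, 7.14%, against 0.675% of all genes) and *Rps24* was higher (1 of 84, 1.19%, against 3.56%). At an unadjusted 0.05 there were 19 members (22.6%, against 27.7%). Both replicate 1 libraries lay below the other 4 for 36 members (42.9%, against 22.7% of all genes) and above them for 3, *Rps6*, *Rps13* and *Rps24* (3.57%, against 22.2%).

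*Rps26*, a small subunit protein at the mRNA exit (10:128061586-128063562, NCBIM37), had 5354 normalized counts in EVX1-Δfs and 4388 in Del#3 in replicate 1. It had 12244 and 15222 in replicate 2 and 18097 and 10850 in replicate 3. Every library of the later replicates was more than 2-fold above both libraries of replicate 1, and the mean log2 difference was -1.51 (limma F-test, adjusted p = 0.0369). *Rps28*, which stands beside it in the ribosome (17:33955972-33961507), had 3404 and 2235 in replicate 1, 6317 and 7104 in replicate 2 and 8126 and 5686 in replicate 3 (log2 difference -1.29, limma F-test, adjusted p = 0.0389). *Rpl37*, a zinc-binding protein of the large subunit (15:5066613-5069140), had 3883 and 2767 in replicate 1, 7985 and 11677 in replicate 2 and 11992 and 7657 in replicate 3 (log2 difference -1.55, limma F-test, adjusted p = 0.0403). In all of these, replicate 1 stood apart in both lines, while replicates 2 and 3 overlapped.

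*Rps12* of the small subunit (10:23504990-23507015) had 8308 and 4547 in replicate 1, 15886 and 23195 in replicate 2 and 23709 and 15080 in replicate 3 (log2 difference -1.63, limma F-test, adjusted p = 0.0481). *Rps29*, a zinc-binding small subunit protein (12:70258709-70260173), had 3721 and 2228 in replicate 1, 6521 and 7337 in replicate 2 and 8000 and 6028 in replicate 3 (log2 difference -1.27, limma F-test, adjusted p = 0.0429). *Rpl34*, of the large subunit (3:130429749-130433316), had 54.1 and 29.5 normalized counts in replicate 1, 114.9 and 134.7 in replicate 2 and 152.4 and 137.8 in replicate 3 (log2 difference -1.72, limma F-test, adjusted p = 0.0399). Its 37 to 129 reads per library make it far less deeply counted than the others.

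*Rps24* went the other way. This small subunit gene (14:25309903-25315368), which is spliced into several isoforms and is mutated in Diamond-Blackfan anaemia, had 16864 normalized counts in EVX1-Δfs and 14679 in Del#3 in replicate 1. It had 6787 and 6208 in replicate 2 and 9563 and 7130 in replicate 3, so that both replicate 1 libraries were above all others (log2 difference 1.10, limma F-test, adjusted p = 0.0399). *Rps13*, of the small subunit, had 11704 and 19191 in replicate 1, 7551 and 7537 in replicate 2 and 8233 and 6651 in replicate 3, with log2 difference 1.00, and did not pass (limma F-test, adjusted p = 0.0923).

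**Figure D3:**
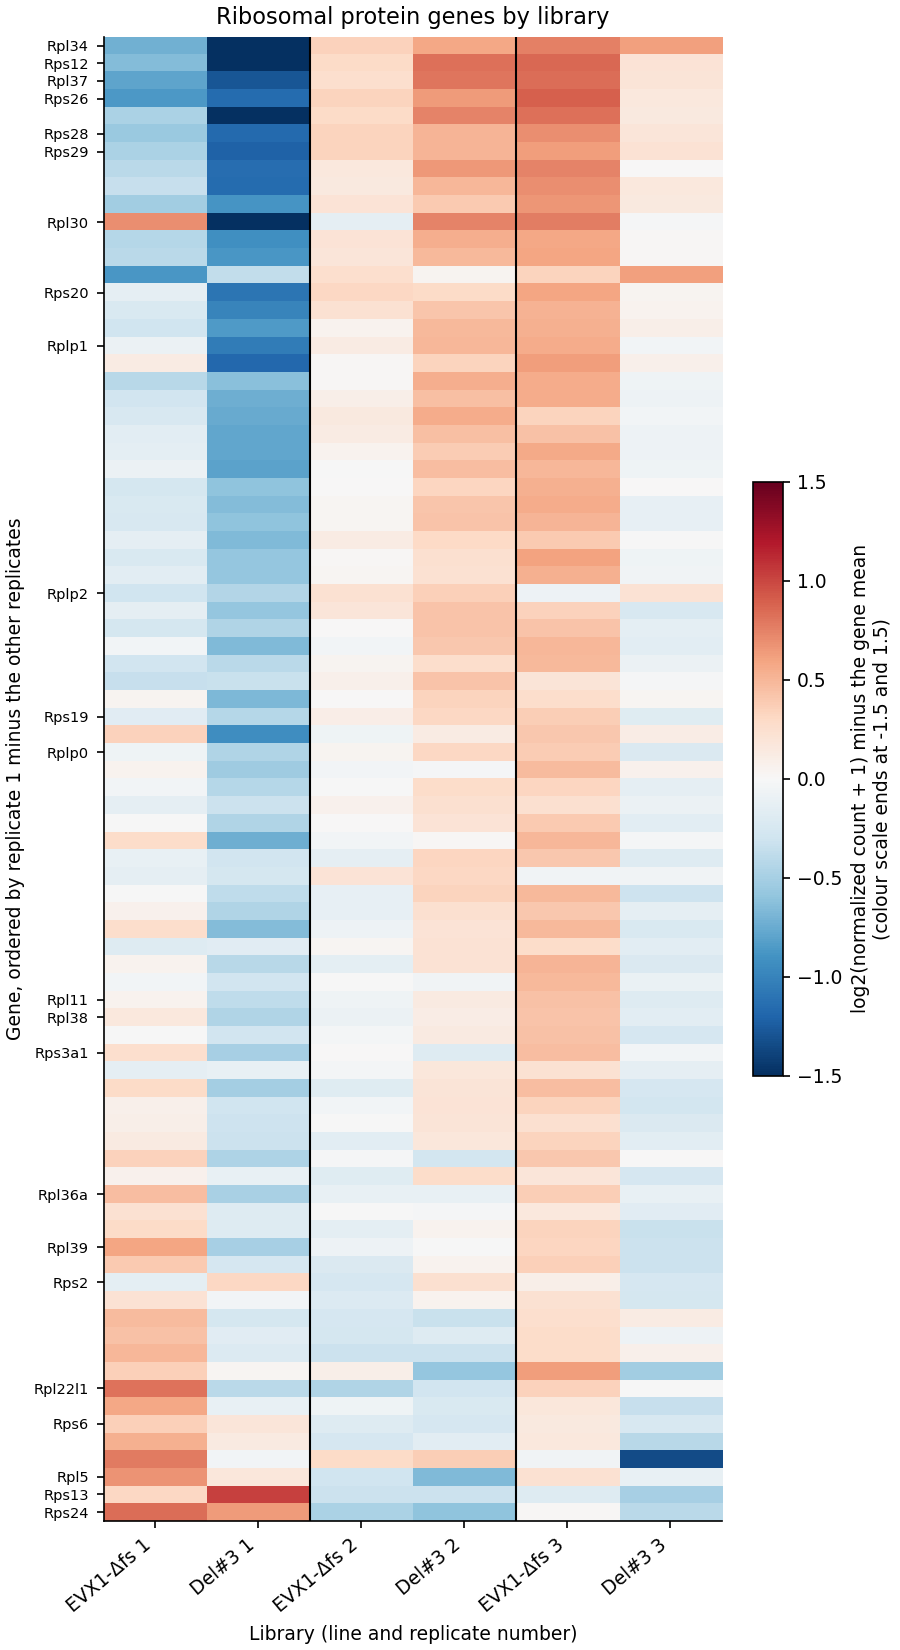
Each row is 1 of the 84 members tested and each column 1 library, with the same-numbered libraries of both lines side by side; colour gives log2(normalized count + 1) minus the gene's mean, from blue (low) to red (high), with the scale ending at -1.5 and 1.5. Rows, of which some are labelled, are ordered by replicate 1 minus the other replicates, from -1.72 for *Rpl34* to 1.10 for *Rps24*.

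Over the 84 members the median log2 difference of replicate 1 from the other replicates was -0.35, against 0.037 over all genes, and 66 members lay below 0. Differences ran from -1.72 to 1.10, so the members did not shift by 1 common amount. Measured in each library against the gene's mean, the members' median deviation was -0.057 in EVX1-Δfs replicate 1 and -0.46 in Del#3 replicate 1. It was 0.0073 and 0.27 in replicate 2 and 0.43 and -0.082 in replicate 3. The lowest of the 6 libraries was thus Del#3 replicate 1 and the highest EVX1-Δfs replicate 3. Leaving out single libraries moved the number of members called by the F-test from 0 without Del#3 replicate 1 (1.62% of all genes called) and 2 without EVX1-Δfs replicate 1 (1.5%) to 33 without EVX1-Δfs replicate 2 (16.9%). It was 17 without EVX1-Δfs replicate 3 (18.3%), 20 without Del#3 replicate 2 (11.1%) and 18 without Del#3 replicate 3 (24.2%). In these fits 1 replicate number is left with a lone library, whose spread is assumed to be like that of the others. With all 6 libraries, 4 members were called with TMM factors (2.69% of all genes), 3 with total reads (2.46%), 4 by edgeR (3.58%) and 18 by DESeq2's likelihood ratio test (10.1%).

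All 7 members called between replicates had short coding sequences. Among the 28 members with the shortest coding sequences (156 to 399 nt), the median difference of replicate 1 was -0.67, and the 7 calls all fell here. It was -0.47 among the 27 of middle length (408 to 579 nt) and -0.28 among the 28 longest (585 to 1260 nt). Across 83 members, Spearman's rho between coding length and the difference of replicate 1 was 0.27, and that with coding GC content was -0.28. These are descriptions across genes that share libraries. Across 12440 genes tested, rho was 0.32 with coding length, 0.37 with transcript length and -0.37 with GC content of the whole transcript. After each library was corrected for length and GC content, 9 of 83 members were called (10.8%, against 2.67% of all genes tested), *Rpl17*, *Rpl37*, *Rpl37a*, *Rps12*, *Rps20*, *Rps24*, *Rps26*, *Rps28* and *Rps29*, and the median difference was -0.12 against -0.030 over all genes. *Rpl34* then had an adjusted p of 0.0512 by the same test. For *Rps20* the correction used an annotated transcript of 3706 nt with 41.3% GC, while its coding sequence has 360 nt with 48.6% GC. Its difference of replicate 1 moved away from 0 with the correction, from -0.92 to -1.53, so its call rests on that transcript.

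**Figure D4:**
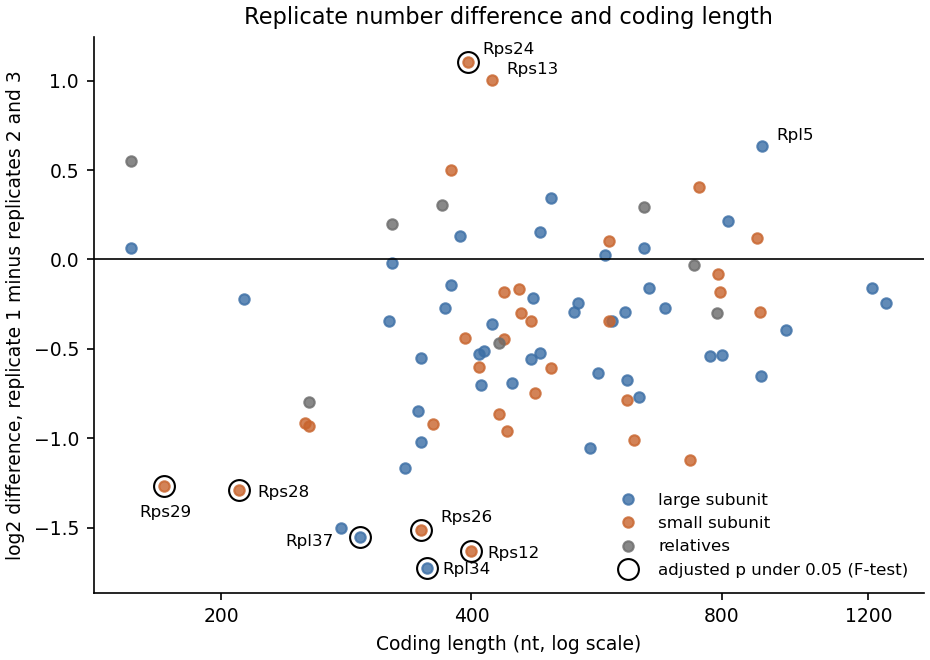
Log2 difference of replicate 1 from replicates 2 and 3 (vertical axis) against coding length in nt (horizontal log axis) for 83 members; colours mark large subunit, small subunit and relatives, and rings mark the 7 members called by the F-test. All ringed genes are at or below 399 nt, 6 of them below -1.2 and *Rps24* at 1.10.

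Other values moved with replicate 1. Both replicate 1 libraries were the deepest of their line, with 15699124 and 12231851 reads on listed genes. Summed markers of primitive blood (*Hbb-bh1*, *Hba-x* and *Gata1*, all detected) were 111 and 131 RPM in replicate 1, 52.9 and 60.1 in replicate 2 and 81.5 and 87.7 in replicate 3. *Malat1*, a nuclear RNA outside the rule for named genes, had 935 and 1777 normalized counts in replicate 1 and 297 to 532 in the other libraries (log2 difference 1.70). Summed endoderm markers were lower in replicate 1, at 351 and 296 RPM, against 357 to 409 in the other libraries. *Rn45s* had 376342 and 312021 normalized counts in replicate 1 and 433147 to 513969 in the others (limma F-test, adjusted p = 0.694). Summed streak, pluripotency and neurectoderm markers overlapped between replicate 1 and the others. The part of depth, of cell composition and of RNA quality in the differences between replicates was not tested.

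Levels were compared between genes as RPM per kilobase of coding sequence (RPM per kb). The median over 84 members with a coding length was 2510 (quartiles 1758 and 3352), and the medians of large and small subunit genes were 2612 and 2928. Of the 75 standard ribosomal protein genes among them, 71 were above 1000. Among the highest means were those of *Rpl23a* (6652), *Rps18* (5904), *Rps3* (5656) and *Rpsa* (5512). For *Rpl23a*, which lies at the exit of the nascent peptide, libraries ranged from 4765 to 8909, and for *Rps3*, at the mRNA entry, from 2606 to 8076. *Rpl23a* was above *Rps3* and *Rpsa* in all 6 libraries and below *Rps18* in Del#3 replicate 1 only, while *Rps3* changed places with *Rps18* and *Rpsa* between libraries. Among the 20 listed genes with the most reads, 7 were members.

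Most ribosomal proteins stand in equal numbers in the ribosome, but 3 standard genes were listed at a very small part of the level of the rest. *Rpl30* had 17, 5 and 10 reads in EVX1-Δfs and 1, 10 and 6 in Del#3, a mean of 2.11 RPM per kb. *Rps27* had 30, 38 and 40 reads against 36, 33 and 54 (14.5 RPM per kb), and *Rpl34* 82, 98 and 129 against 37, 116 and 129 (27.2 RPM per kb). To see how far short pieces of their sequence recur, each 50-base stretch of every member's coding sequence was searched exactly on both strands of NCBIM37. Read lengths were not used, and a longer read can be unique where a 50-base stretch is not. For *Rpl30* 83.3% of such stretches, for *Rps27* 100% and for *Rpl34* 71.5% occurred at another place in the genome. Other members had as many copies: 28 of 84 had every stretch elsewhere, the median was 89.2%, and *Rps2* had on average 14.9 further copies per stretch at 5350 RPM per kb. Near the other end was *Rps3*, with 8.05% elsewhere and 5656 RPM per kb. Spearman's rho between the share of copied stretches and the level was 0.057 across 83 members. HTSeq leaves out reads aligned to several places at its standard settings, and the part of this in the low listed levels was not tested.

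**Figure D5:**
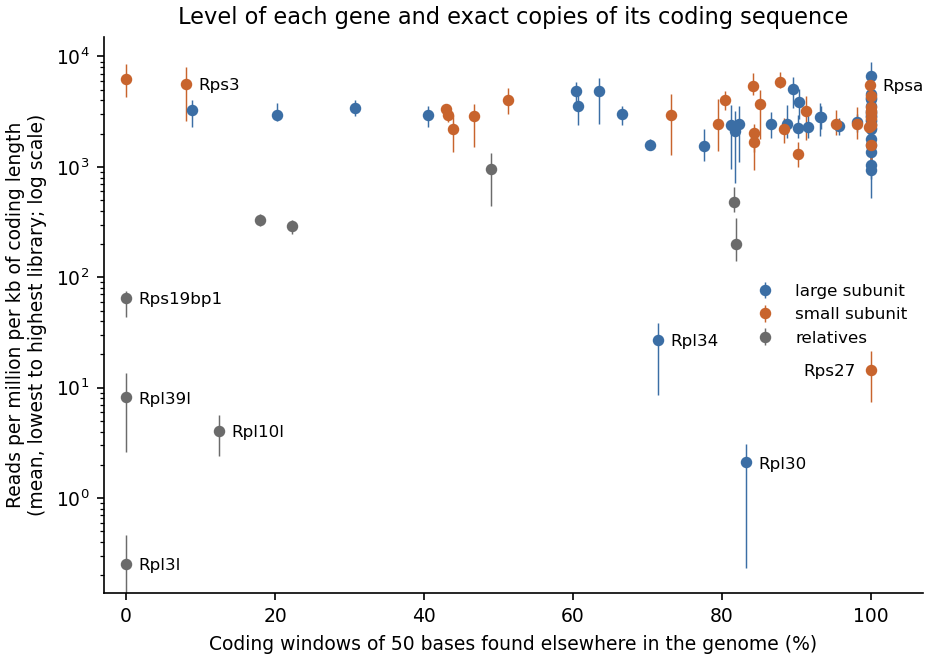
Mean level of each member in RPM per kb of coding sequence (vertical log axis; lines run from the lowest to the highest library) against the percentage of its 50-base coding stretches that occur elsewhere in the genome; colours mark large subunit, small subunit and relatives. *Rpl30*, *Rps27* and *Rpl34* lie far below the other standard genes, at 2.11, 14.5 and 27.2, and genes with 100% copied stretches, such as *Rpl23a*, reach the same levels as *Rps3* with 8.05%.

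Paralogs were mostly far below their partners. The muscle paralog *Rpl3l* had 2, 3 and 0 reads in EVX1-Δfs and 4, 1 and 2 in Del#3 and did not pass the filter. The 0 in EVX1-Δfs replicate 3 allows up to 0.314 RPM by counting error alone. *Rpl3* was at 2350 RPM per kb. The testis paralogs *Rpl10l* and *Rpl39l* were at 4.06 and 8.19 RPM per kb, beside 2258 for *Rpl10* and 2421 for *Rpl39*. *Rpl22l1* was at 199.6 beside 3439 for *Rpl22*, *Rpl7l1* at 292 beside 1551 for *Rpl7*, and *Rps4y2* at 328 beside 1308 for *Rps4x*. The closest pair was *Rpl36al*, at 484, beside *Rpl36a*, at 1034. In 1 pair the order was the other way, with the p53 target *Rps27l* at 966 RPM per kb and *Rps27* listed at 14.5. *Rps19bp1* was at 64.9 RPM per kb.

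The relatives were also followed by library. *Rpl22l1* had 1303, 544 and 939 normalized counts in EVX1-Δfs and 559, 607 and 736 in Del#3, so that EVX1-Δfs replicate 1 stood above the other libraries, while *Rpl22* had 16290, 12191 and 16458 against 13636, 14511 and 11701. *Rps27l* had 2695, 2510 and 3832 in EVX1-Δfs and 1095, 3139 and 2623 in Del#3, lowest in Del#3 replicate 1. *Rps4y2* was nearly level between the lines, with 2493, 3134 and 2622 against 2263, 3370 and 2635 (log2 fold change -0.0094, SE 0.23). None of the 8 relatives tested passed between lines or between replicates by limma.

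Genes of the same pathway outside the rule gave a frame for these values. Ribosomal proteins with other names, *Fau* (a fusion with a ubiquitin-like protein) and *Gnb2l1* (RACK1), had log2 fold changes between the lines of -0.066 and -0.20. *Gnb2l1* had 45599, 50992 and 65897 normalized counts in EVX1-Δfs and 34024, 65369 and 45524 in Del#3, the same order of libraries as the members' share. Of 19 genes for elongation factors and other TOP mRNAs, 0 passed between the lines by limma (unadjusted 0.05: 0), their median log2 fold change was -0.042, and by the F-test 2 of 19 were higher in replicate 1 (3.56% of all genes) and 0 lower (0.675%). *Eef1a1*, the elongation factor that brings tRNA to the ribosome, had 121467, 85939 and 107720 against 107701, 74782 and 80661 (log2 fold change -0.26, SE 0.29). *Eef2*, the translocase, had 44726, 54899 and 55012 against 46684, 68350 and 46594 (0.046, SE 0.28), and *Tpt1* had 17139, 13660 and 19583 against 9985, 14805 and 13186 (-0.41, SE 0.26).

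Of 71 genes of ribosome biogenesis on a list of processing and assembly factors, 69 were listed and tested. Between the lines 0 passed by limma (unadjusted 0.05: 0), and the median log2 fold change was -0.050. Between replicates 9 passed the F-test, all higher in replicate 1 (9 of 69, against 3.56% of all genes called higher and 0.675% called lower). *Ncl*, nucleolin, had 8208 and 10936 normalized counts in replicate 1, 2298 and 4302 in replicate 2 and 4636 and 5161 in replicate 3 (log2 difference 1.27, limma F-test, adjusted p = 0.0305). After correction for length and GC content its difference was 0.40 and the call was lost (limma F-test, adjusted p = 0.299). *Npm1*, nucleophosmin, had 19172 and 18398, 6100 and 15776, and 18854 and 12529, and did not pass (limma F-test, adjusted p = 0.30). *Fbl*, the rRNA methyltransferase fibrillarin, had 4039 to 5397 in EVX1-Δfs and 3696 to 5473 in Del#3. *Myc*, which drives ribosome production in many cells, had 1138, 714 and 409 in EVX1-Δfs and 1245, 592 and 930 in Del#3 (log2 fold change 0.35, SE 0.39), and *Mycn* had 739 to 772 and 677 to 795.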

How the data were processed

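D4 EBs of the EVX1-Δfs and Del#3 lines were compared by mRNA-seq with 3 replicates each. Following poly(A) selection, the authors sequenced on an Ion Proton, aligned to mm9 by TopHat2 followed by TMAP, obtained gene counts from HTSeq and used DESeq2, both with standard settings; versions are not given in the sources used here. The signal values deposited by the authors are normalized counts, 1 per gene and library. In each library 100% of values were whole multiples of 1 step (tolerance 0.001), from which reads were recovered. No column went unused; 2 rows share a symbol altered by spreadsheet software and are not members. Members, gene lists and tests were chosen with earlier results of these data known.

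Since these are not raw counts, log2(normalized count + 1) was fitted in limma 3.58.1 (R 4.3.3) with its trend option and no covariate, over the 12891 genes that passed filterByExpr of edgeR 4.0.16 (minimum count 10). Adjusted p-values are Benjamini-Hochberg over all genes tested, with a threshold of 0.05; RPM are recovered reads per 1000000 on listed genes; and single values were compared by exact permutation tests in scipy 1.17.1. Replicates are separate differentiations of 1 edited line each. The treatment protocol in the labels puts the samples being compared on 1 day, and the study's methods give every replicate a day of its own, but neither ties the numbers of the lines together, so pairing by number is an assumption. Deviations of same-numbered libraries from their line means correlated at 0.75, 0.54 and 0.62 across members and at 0.74, 0.32 and -0.05 across all genes. No libraries were duplicates (lowest chi-square per degree of freedom within a line 27.6).

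Alternatives were other scalings (DESeq2 1.42.0 size factors, TMM, total reads), filters and pseudocounts of 0.1 and 5, edgeR and DESeq2 on the recovered reads, the replicate block, a loess correction for GC content and transcript length, and leaving out each library. Leaving out *Rn45s* or *Rps2*, and all settings of the ratio of subunits, were chosen after seeing the data. The limma and edgeR fits by line without the block, and those by replicate number, were also run on simulated data. DESeq2, the replicate block, the correction for length and GC content and the other settings were not.

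Coding lengths and positions are those of GENCODE vM1 on NCBIM37 (84 of 85 members matched; *Rpl41* did not). Genes named were the members with the 5 highest and 5 lowest fold changes between lines, the 5 smallest F-test p-values, the 5 highest and 5 lowest levels, any member failing the filter, the P stalk and the lists described. Others (*Rpl4*, *Rpl7a*, *Rpl9*, *Rpl12*, *Rpl17*, *Rpl27a*, *Rpl37a*, *Rps3a1*, *Rps6*, *Rps9*, *Rps12*, *Rps29*, *Malat1* and the pseudogene rows) were chosen after their values were seen. Some genes are not reported here by name and stay out of the counts of the lists, while members among them stay in the counts over all members.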

Additional observations from a re-analysis of the deposited data

How the results depend on the processing

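Between the lines, 0 members passed by limma in the main fit and 0 under every alternative run, including the replicate block by limma, edgeR and DESeq2. With the block, the members' median was -0.25 by edgeR and -0.27 by DESeq2; by limma (-0.27) and for the difference in share (-1.58 percentage points) the pairing leaves the value as it is by construction. The block changed no call. Leaving out single libraries moved the median from -0.46 to -0.042 and the share difference from -2.62 to -0.53 points; it was -1.72 without the 10 most abundant genes, -1.57 with standard names only and -1.66 without *Rn45s*. No mitochondrially encoded genes are listed, so the share of nuclear reads equals that of all reads. The number of members called between replicates depended on the setting: against 7, it was 4 with TMM factors, 3 with total reads, 4 by edgeR and 18 by DESeq2's likelihood ratio test, and 0 to 33 with 1 library left out; it was 5 to 9 under the other settings, and the causes were not tested. Total reads moved the median replicate 1 difference of all genes from 0.04 to 0.15, and that of members to -0.24. Of 656 fold changes of named members under alternatives with all libraries, 13 changed sign and 0 passed the threshold. After length and GC correction, with or without the block, *Rpl22* was at 0.063, *Rpl7l1* at 0.026, *Rps18* at 0.073 and *Rps4y2* at 0.056. *Rps4y2* was also at 0.0062 with TMM, 0.024 with total reads, 0.018 by edgeR, 0.011 by edgeR with the block and 0.0037 by DESeq2. With 1 library left out, 30 of 282 changed sign, 14 of them without Del#3 replicate 1. The ranges were -0.15 to 0.23 for *Rpl28*, -0.68 to 0.47 for *Rpl34*, -0.73 to 0.16 for *Rpl35a*, -0.64 to 0.39 for *Rpl37*, -0.20 to 0.059 for *Rpl7l1*, -0.74 to 0.028 for *Rplp1*, -0.065 to 0.33 for *Rplp2*, -0.46 to 0.022 for *Rps10*, -0.82 to 0.35 for *Rps12*, -0.35 to 0.42 for *Rps13*, -0.29 to 0.071 for *Rps18*, -0.43 to 0.074 for *Rps19bp1*, -0.63 to 0.10 for *Rps24*, -0.73 to 0.28 for *Rps26*, -0.20 to 0.43 for *Rps27*, -0.68 to 0.19 for *Rps28*, -0.66 to 0.20 for *Rps29*, -0.66 to 0.16 for *Rps3* and -0.16 to 0.12 for *Rps4y2*. Depth limits the lowest genes (*Rpl3l*, *Rpl10l*, *Rpl30*, *Rpl39l*), for which counting error covers reads and not molecules.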

Other observations

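The table also lists 5 rows marked as pseudogenes of ribosomal protein genes, which the rule left out. *Rps15a-ps6* had 418, 318 and 448 normalized counts in replicates 1 to 3 of EVX1-Δfs and 132, 334 and 363 in Del#3, lowest in Del#3 replicate 1. *Rps19-ps3* had 25.1, 147.7 and 145.3 in EVX1-Δfs and 61.4, 162.6 and 125 in Del#3, with both replicate 1 libraries below the other 4 (limma F-test of the replicate number, adjusted p = 0.0440). *Rps15a-ps4* had 2.39 to 16.0 normalized counts per library, *Rpl31-ps12* 2.32 to 6.41 and *Rpl34-ps1* 0 to 5.91, and the last pair did not pass the filter on low counts. How the counting split reads between a pseudogene and its parent gene was not tested.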
